A study of Mus musculus with 8 samples.

Results

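The neutrophil granule genes examined here were Mpo, Elane, Prtn3, Ctsg, Ltf, Camp, Ngp, Mmp8, S100a8 and S100a9. They were taken by symbol: each probe set that the array annotation pairs with exactly 1 of these symbols was a member, which gave 10 probe sets, 1 per gene, out of 45037 (10 of the 18193 genes with such a probe set). Each value is from the whole liver of 1 mouse aged 2 days, on 1 Affymetrix array. The 4 knockout mice carried the genotype Mfp2 -/- and the 4 others were wild type. Mfp2, the multifunctional protein 2 of peroxisomes, takes part in the shortening of very long chain fatty acids and bile acid precursors and is encoded by Hsd17b4. The sources used here name no strain or sex and do not say how the knockout was made. The question was whether the transcripts of developing neutrophils differed in knockout livers, and whether genes of early and of late granules differed alike.

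Newborn liver still makes blood cells, granulocytes among them. A neutrophil fills its granules in order as it matures. The promyelocyte makes the primary (azurophil) granules, with myeloperoxidase and serine proteases. The later myelocyte and metamyelocyte make the secondary (specific) granules, with lactoferrin and antimicrobial proteins, and the transcripts of the primary granule proteins decline by then. S100a8 and S100a9 encode the 2 subunits of calprotectin, which fills the cytosol of maturing neutrophils. Within the neutrophil lineage, primary and secondary granule transcripts therefore mark successive stages. Whether other cells of the liver add to these transcripts was not tested.

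The labels were checked first. Hsd17b4 lay between 3.25 and 4.29 in knockout and between 8.15 and 8.97 in wild type livers, on the log2 scale of the deposited RMA values (RMA is a normalization and summary method for array probes). Xist, transcribed in cells with 2 X chromosomes, was high in knockout 1, knockout 2 and wild type 3, at 8.59, 9.28 and 8.67, and between 2.83 and 4.32 in the other 5 livers. The mean of 9 hepatocyte markers lay between 12.62 and 12.78 in the 8 livers. The medians of the arrays lay between 3.68 and 3.73, and all 10 members lay above them in every liver, with a lowest value of 5.42 for Mmp8 in knockout 3. Levels of different genes are not compared here, since probes differ in brightness.

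No granule gene differed between the genotypes beyond the threshold used, an adjusted p of 0.05 in limma over all probe sets. The means of 8 members were lower and those of 2 were higher in the knockout, where 45.9% of all probe sets had a lower mean. All 4 secondary granule genes and both S100 genes were among the lower ones, with differences between -0.63 and -0.12 on the log2 scale. The primary granule genes lay between -0.33 and 0.05, with Elane at the lower end and the other 3 between -0.08 and 0.05. Of the 10 members 0 passed the threshold, where 0.762% of all probe sets did (0.198% higher and 0.564% lower in the knockout). At an unadjusted p under 0.05 there were 0 members, against 11.7% of all probe sets. Knockout and wild type values overlapped in all 10 members, where they lay apart in 6.9% of all probe sets. In whole liver, fewer cells of a type and less RNA per cell cannot be told apart.

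**Figure D1:**
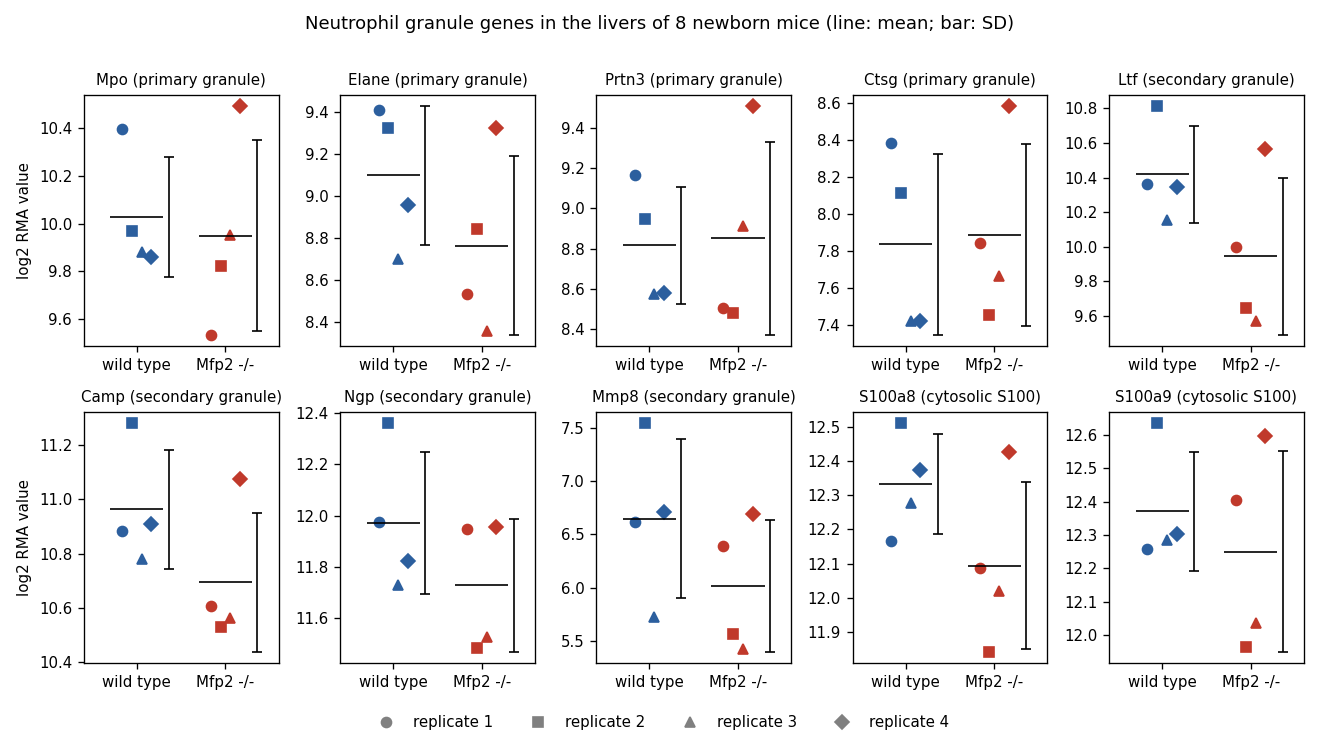
Log2 RMA values of the 10 granule genes (vertical axes, a scale of its own for each gene) in 4 wild type (blue) and 4 Mfp2 -/- (red) livers, 1 symbol per liver with its shape giving the replicate number, a line at the group mean and a bar of 1 SD. The groups overlap for each gene, and knockout 4 (red diamond) is the highest knockout liver throughout.

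Among the primary granule genes, the differences of Mpo, Prtn3 and Ctsg lay between -0.08 and 0.05, and that of Elane was -0.33. All 4 were spread widely within the knockout group. Mpo encodes myeloperoxidase, the enzyme that makes hypochlorous acid. Its values in knockout 1 to 4 were 9.54, 9.82, 9.95 and 10.49, and in wild type 1 to 4 they were 10.40, 9.97, 9.88 and 9.86. The knockout group thus held both the lowest and the highest of the 8 livers. The difference, knockout minus wild type, was -0.08 ± 0.20 (SE), with a 95% interval from -0.52 to 0.37 and a limma adjusted p of 0.936.

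Elane encodes neutrophil elastase, a serine protease. It measured 8.53, 8.84, 8.36 and 9.33 in knockout 1 to 4 and 9.41, 9.33, 8.70 and 8.96 in wild type 1 to 4. Knockout 1 and 3 lay below all wild type livers, while knockout 4 lay among the highest. The difference was -0.33 ± 0.22 (limma adjusted p 0.640), with an interval from -0.83 to 0.16.

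Prtn3 encodes proteinase 3 and lies next to Elane on chromosome 10, with 0 protein-coding genes between them in RefSeq. Its values were 8.50, 8.48, 8.91 and 9.51 in knockout 1 to 4 and 9.17, 8.95, 8.57 and 8.58 in wild type 1 to 4. Knockout 4 was the highest liver and knockout 1 and 2 the lowest. The difference was 0.03 ± 0.23 (limma adjusted p 0.977), with an interval from -0.48 to 0.55.

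Ctsg encodes cathepsin G, the third serine protease of the group. It measured 7.84, 7.46, 7.67 and 8.58 in knockout 1 to 4 and 8.38, 8.11, 7.42 and 7.42 in wild type 1 to 4. Here too knockout 4 was the highest of the 8, and wild type 3 and 4 were the lowest. The difference was 0.05 ± 0.28 (limma adjusted p 0.971), with an interval from -0.57 to 0.67. The sign of the differences of Prtn3 and Ctsg rested on single livers. Without knockout 4 they were -0.19 and -0.18, without wild type 3 -0.047 and -0.087, and without wild type 4 -0.045 and -0.087.

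The secondary granule genes all had lower means in the knockout, and none passed the threshold. Ltf encodes lactoferrin, the iron-binding protein of secondary granules. Its values were 9.998, 9.65, 9.57 and 10.56 in knockout 1 to 4 and 10.36, 10.81, 10.15 and 10.34 in wild type 1 to 4. Knockout 1 to 3 lay below all 4 wild type livers and knockout 4 above 3 of them. The difference was -0.47 ± 0.22 (SE), a ratio of knockout to wild type of 0.720, with an interval from -0.97 to 0.02. Its limma adjusted p of 0.452 was the lowest among the members.

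Camp encodes the mouse cathelicidin, a precursor of an antimicrobial peptide. It measured 10.61, 10.53, 10.57 and 11.07 in knockout 1 to 4 and 10.88, 11.28, 10.78 and 10.91 in wild type 1 to 4. Its order resembled that of Ltf: knockout 1 to 3 were the 3 lowest livers and knockout 4 the second highest. The difference was -0.27 ± 0.15 (limma adjusted p 0.563), with an interval from -0.61 to 0.07.

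Ngp encodes the neutrophilic granule protein, which is related in sequence to the cathelicidin precursors. It measured 11.95, 11.48, 11.53 and 11.96 in knockout 1 to 4 and 11.97, 12.36, 11.73 and 11.82 in wild type 1 to 4. Knockout 2 and 3 were lowest, and knockout 1 lay among the wild type livers. The difference was -0.24 ± 0.17 (limma adjusted p 0.651), with an interval from -0.62 to 0.13.

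Mmp8 encodes neutrophil collagenase and varied most, over 2.12 on the log2 scale between wild type 2 and knockout 3. It measured 6.39, 5.57, 5.42 and 6.69 in knockout 1 to 4 and 6.62, 7.55, 5.72 and 6.72 in wild type 1 to 4. Wild type 3 was nearly as low as the lowest knockout livers, so the groups overlapped broadly. The difference was -0.63 ± 0.39 (limma adjusted p 0.601). Its interval, from -1.49 to 0.23, spans ratios of knockout to wild type from 0.355 to 1.17.

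The S100 genes showed the smallest spread between livers. S100a8 measured 12.09, 11.84, 12.02 and 12.43 in knockout 1 to 4 and 12.17, 12.51, 12.28 and 12.37 in wild type 1 to 4. Knockout 1 to 3 were again its 3 lowest livers. The difference was -0.24 ± 0.13 (SE; limma adjusted p 0.564), with an interval from -0.54 to 0.06. S100a9, its neighbour on chromosome 3 with 0 protein-coding genes between them in RefSeq, measured 12.40, 11.96, 12.04 and 12.60 in knockout 1 to 4 and 12.26, 12.63, 12.29 and 12.30 in wild type 1 to 4. Knockout 1 and 4 lay above 3 of the wild type livers, and knockout 2 and 3 lay below all of them. The difference was -0.12 ± 0.16 (limma adjusted p 0.844), with an interval from -0.47 to 0.23. The suffix of the S100a8 probe set marks probes that can match more than 1 transcript.

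Single livers recurred at the top of their group. Knockout 4 was the highest knockout liver for 10 of the 10 members, where it was so for 21.5% of all probe sets. Wild type 2 was the highest wild type liver for 6 members, namely the secondary granule and S100 genes, against 27.2% of all probe sets. For the 4 primary granule genes the highest wild type liver was wild type 1. The members were chosen as genes of 1 lineage and read on the same arrays, so such counts are not independent of each other.

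The genotypes were then compared within replicates 1 and 2 and within replicates 3 and 4, with 2 livers of each genotype in each set. The split follows the replicate numbers alone, and no label ties these sets to a batch or a litter. In replicates 1 and 2 all 10 members had lower means in the knockout, with a median of -0.54, where 49.2% of all probe sets had a difference below 0 and the median over all of them was 0.00. The differences were -0.50 for Mpo, -0.68 for Elane, -0.56 for Prtn3 and -0.60 for Ctsg. They were -0.76 for Ltf, -0.51 for Camp, -0.45 for Ngp and -1.11 for Mmp8, and -0.37 and -0.26 for S100a8 and S100a9. In 9 of the 10, S100a9 being the exception, both knockout livers lay below both wild type livers, as they did in 15.9% of all probe sets. Of the members 0 passed in limma, where 0.00888% of all probe sets did, and 6 had an unadjusted p under 0.05, against 4.03% of all probe sets. Both knockout livers of this set were high in Xist and both wild type livers were low, so sex and genotype cannot be told apart here.

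In replicates 3 and 4 the primary granule genes had higher means in the knockout and the secondary granule genes lay near 0. The differences were 0.35 for Mpo, 0.01 for Elane, 0.63 for Prtn3 and 0.70 for Ctsg. They were -0.18 for Ltf, -0.02 for Camp, -0.04 for Ngp, -0.16 for Mmp8, -0.10 for S100a8 and 0.02 for S100a9. Mpo, Prtn3 and Ctsg were the 3 members for which both knockout livers lay above both wild type livers, as in 24.6% of all probe sets. The reverse held for 0 members and for 20.9% of all probe sets. Again 0 members passed in limma, where 1.02% of all probe sets did, and 2 had an unadjusted p under 0.05, against 14.8%. The lowest adjusted p was 0.230, for Prtn3. A single liver of this set, wild type 3, was high in Xist.

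**Figure D2:**
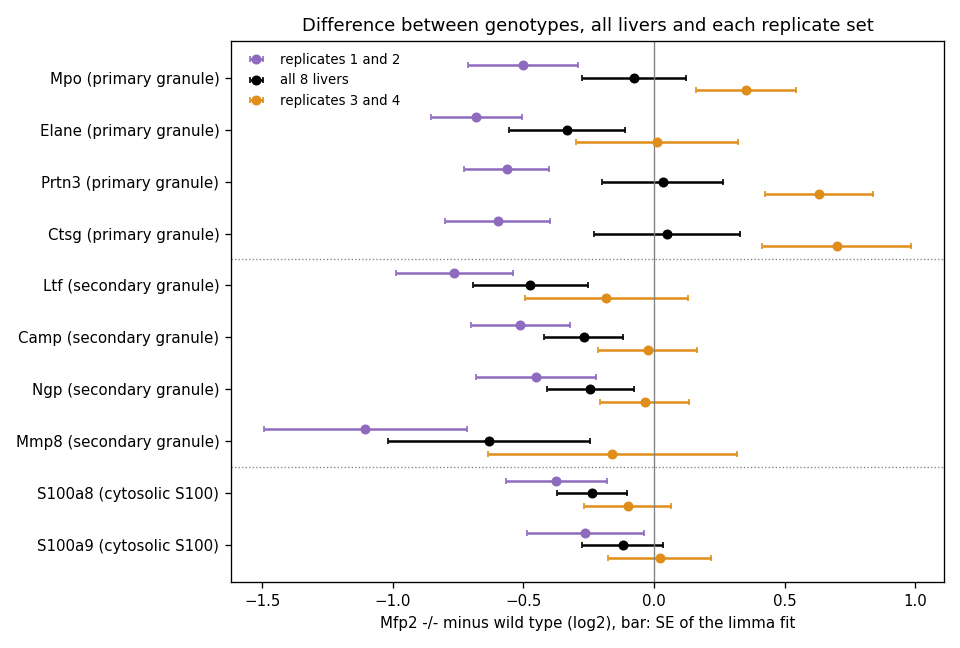
Difference of each granule gene, Mfp2 -/- minus wild type on the log2 scale (horizontal axis), in all 8 livers (black), replicates 1 and 2 (purple) and replicates 3 and 4 (orange), with bars of 1 SE of the limma fit. All purple points lie below 0, while orange points run from -0.18 to 0.70 with the primary granule genes at 0.01 or above.

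The change between the sets was tested itself, as an interaction of genotype and set in limma. The effect in replicates 3 and 4 minus that in replicates 1 and 2 was above 0 for all 10 members. It was largest for Ctsg, at 1.30 ± 0.40 (SE), and Prtn3, at 1.20 ± 0.28, followed by Mmp8 at 0.94 ± 0.73 and Mpo at 0.85 ± 0.31. For the other members it lay between 0.27 and 0.69. With 1 liver left out, which leaves 1 group with a lone liver that is assumed to vary like the others, the value stayed above 0 for all 10 members, but its size moved widely. Without knockout 4 it was 0.84 for Ctsg, 0.90 for Prtn3, 0.59 for Mpo, 0.31 for Mmp8, 0.21 for Elane, 0.085 for Ltf and 0.0065 for S100a9. Without knockout 3 it was 1.76 for Ctsg, 1.495 for Prtn3, 1.12 for Mpo, 1.58 for Mmp8, 1.18 for Elane, 1.08 for Ltf and 0.56 for S100a9. None passed the threshold: 0 of 10 members did, each with a limma adjusted p of 1.00, and 0.00222% of all probe sets. At an unadjusted p under 0.05 there were 3 members (Mpo, Prtn3 and Ctsg), against 4.28% of all probe sets. With the mean of the Y-linked transcripts as a covariate, a stand-in for sex, the value was 1.55 for Ctsg, 1.36 for Prtn3 and 1.08 for Mpo, and that of Mmp8 turned to -0.09.

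The contrast of primary with secondary granule genes is given as values without a test, since the members were picked with earlier results of these arrays known. The median difference of the 4 primary granule genes was -0.02 and that of the 4 secondary granule genes -0.37, against 0.02 over all probe sets. The first minus the second was 0.35. It was 0.06 in replicates 1 and 2, where both kinds of genes were lower, and 0.59 in replicates 3 and 4, where the primary granule genes had higher means and the secondary granule genes did not. With single livers left out it ran from 0.24 to 0.49. In replicates 3 and 4 the mean of the primary granule genes was 8.72 in knockout 3 and 9.48 in knockout 4. It was 8.65 in wild type 3 and 8.71 in wild type 4. The lists of other primary and of other secondary granule genes, described below, had medians of 0.17 and 0.10 in that set.

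Per liver, the mean of the primary granule genes was 8.60, 8.65, 8.72 and 9.48 in knockout 1 to 4 and 9.34, 9.09, 8.65 and 8.71 in wild type 1 to 4. Knockout 4, wild type 1 and wild type 2 thus stood above a group of 5 livers that held 3 knockout and 2 wild type livers. Knockout livers averaged 8.86 ± 0.41 (SD, n = 4) and wild type livers 8.94 ± 0.33. The mean of the secondary granule genes was 9.74, 9.31, 9.27 and 10.07 in knockout 1 to 4 and 9.96, 10.50, 9.60 and 9.95 in wild type 1 to 4. Knockout 2 and 3 were lowest and wild type 2 was highest. The group means were 9.60 ± 0.38 and 10.001 ± 0.37.

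Primary minus secondary mean was -1.13, -0.66, -0.55 and -0.60 in knockout 1 to 4 and -0.62, -1.41, -0.95 and -1.24 in wild type 1 to 4. Only differences between livers carry meaning in this value. Knockout 2 to 4 lay above wild type 2 to 4, while knockout 1 lay among the wild type livers and wild type 1 among the knockout livers. The group means were -0.73 ± 0.27 and -1.06 ± 0.35 (SD, n = 4). They differed by 0.32, and the values of the genotypes overlapped.

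**Figure D3:**
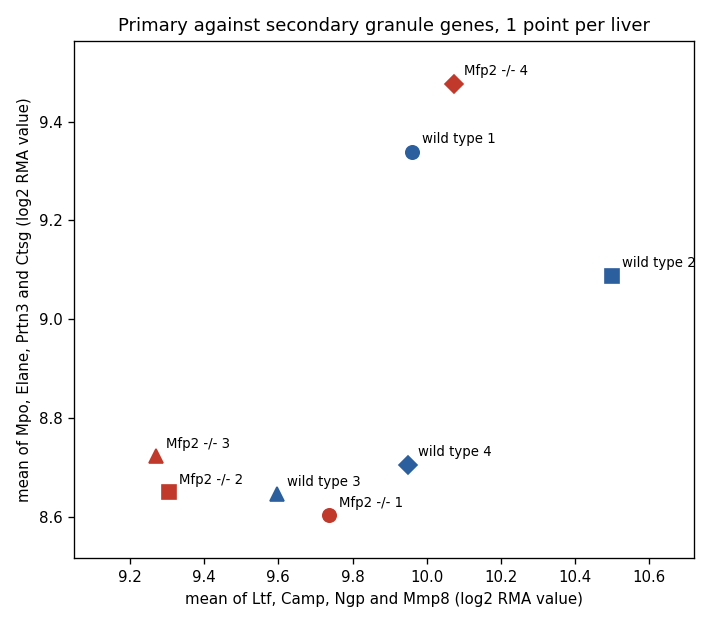
Mean of the 4 primary granule genes (vertical axis) against the mean of the 4 secondary granule genes (horizontal axis), both as log2 RMA values, with 1 labelled point per liver, red for Mfp2 -/- and blue for wild type. Knockout 4 and wild type 1 lie highest, wild type 2 lies farthest right, and knockout 2 and 3 lie lowest on the secondary axis.

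How the members varied together is given as a description, since all were read on the same arrays. Pearson correlations over the 8 livers had a median of 0.91 (0.85 to 0.97) over the 6 pairs of secondary granule genes and of 0.74 (0.63 to 0.92) over the 6 pairs of primary granule genes. Over the 16 pairs of a primary with a secondary granule gene the median was 0.57 (0.22 to 0.81). Elane stood between the kinds. Its correlation was 0.81 with Ltf, 0.80 with Camp, 0.74 with Mmp8 and 0.66 with Ngp. With the primary granule genes it was 0.72 for Mpo, 0.70 for Ctsg and 0.63 for Prtn3. The S100 genes followed the secondary granule genes, with a median of 0.87 over 8 pairs, against 0.46 with the primary granule genes. With the genotype means taken out, the medians were 0.89, 0.80, 0.66, 0.87 and 0.51 in the same order. The means of the primary and the secondary granule genes correlated with a Pearson r of 0.62 and a Spearman rho of 0.60, and r was 0.78 without knockout 4 and wild type 1, the livers farthest from the median of the primary mean.

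The promoters of the primary granule genes are shown beside those of Ltf and Ngp, so that both kinds of granule gene can be compared. Those of the secondary granule genes Camp and Mmp8 are not shown. Of the motifs marked below, Camp held neither and Mmp8 held both. Each line gives the 250 bases before the annotated start, 5′ to 3′ on the gene's own strand, from RefSeq on the build GRCm38.p6, in which all 10 members were found. In Mpo, Elane, Prtn3 and Ctsg the capitals mark AGGAAGT, a core that PU.1 and other ETS factors bind. In Ltf and Ngp they mark TTNNGNAA, a loose form of the C/EBP site, or its reverse complement, as in 2 of the 3 marked stretches of Ngp.
Mpo promoter, chr11:87793534-87793783, plus strand: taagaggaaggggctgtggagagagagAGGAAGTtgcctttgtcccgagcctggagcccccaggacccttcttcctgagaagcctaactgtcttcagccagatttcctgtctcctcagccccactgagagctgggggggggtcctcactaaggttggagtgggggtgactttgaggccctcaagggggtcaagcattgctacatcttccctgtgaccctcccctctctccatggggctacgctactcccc
Elane promoter, chr10:79886062-79886311, plus strand: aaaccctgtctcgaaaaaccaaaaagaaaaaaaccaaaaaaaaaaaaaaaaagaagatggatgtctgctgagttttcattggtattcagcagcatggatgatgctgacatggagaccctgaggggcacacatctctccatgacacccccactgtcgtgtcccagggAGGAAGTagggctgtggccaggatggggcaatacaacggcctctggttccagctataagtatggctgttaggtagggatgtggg
Prtn3 promoter, chr10:79879417-79879666, plus strand: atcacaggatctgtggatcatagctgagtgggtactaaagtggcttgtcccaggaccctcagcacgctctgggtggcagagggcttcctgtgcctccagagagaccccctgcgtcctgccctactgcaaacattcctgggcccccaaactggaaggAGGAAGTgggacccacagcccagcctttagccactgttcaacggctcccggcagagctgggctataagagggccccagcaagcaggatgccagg
Ctsg promoter, chr14:56102575-56102824, minus strand: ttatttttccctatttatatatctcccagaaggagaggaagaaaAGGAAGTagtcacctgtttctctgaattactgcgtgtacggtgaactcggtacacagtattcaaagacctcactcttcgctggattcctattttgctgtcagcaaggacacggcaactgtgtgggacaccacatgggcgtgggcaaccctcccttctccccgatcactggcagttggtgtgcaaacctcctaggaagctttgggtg
Ltf promoter, chr9:111019042-111019291, plus strand: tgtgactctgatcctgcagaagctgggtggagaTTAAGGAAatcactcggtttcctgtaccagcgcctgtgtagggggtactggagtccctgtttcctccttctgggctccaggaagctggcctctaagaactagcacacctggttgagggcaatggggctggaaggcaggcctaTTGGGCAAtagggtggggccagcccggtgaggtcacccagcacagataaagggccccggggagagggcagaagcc
Ngp promoter, chr9:110419558-110419807, plus strand: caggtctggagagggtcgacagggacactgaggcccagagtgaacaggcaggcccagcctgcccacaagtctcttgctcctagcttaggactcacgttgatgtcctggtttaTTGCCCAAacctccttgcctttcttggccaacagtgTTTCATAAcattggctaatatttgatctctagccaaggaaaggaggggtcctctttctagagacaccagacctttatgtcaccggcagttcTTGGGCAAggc

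AGGAAGT or its reverse complement stood in the window of 4 of 4 primary granule genes, of 1 secondary granule gene (Mmp8) and of S100a8, against 7.69% of the 32851 promoters in the table. It began 223 bases before the start in Mpo, 84 in Elane, 94 in Prtn3 and 206 in Ctsg. TTNNGNAA, on either strand, stood in 0 of the 4 primary granule genes, in 3 of the 4 secondary granule genes (Ltf, Ngp and Mmp8) and in both S100 genes, against 36.8% of all promoters. AACGG, a core of the MYB site, stood in Elane and Prtn3 alone among the members, 50 and 55 bases before the start, against 14.5% of all promoters. TGTGGT, the RUNX core, stood in Ctsg and S100a9, against 14% of all promoters. All were searched on both strands, and matches of different motifs did not overlap in any member. The motifs were chosen after the sequences were seen. Such matches describe letters and show no binding.

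Other genes of the neutrophil lineage were read from lists, with 1 probe set per gene. Of 5 other genes of promyelocytes and primary granules found on the array, 3 had higher and 2 lower means in the knockout and 0 passed, with a median of 0.02. Lyz2, lysozyme, had the lowest p, at -0.35 ± 0.21 (SE; limma adjusted p 0.593). It was at -0.54 in replicates 1 and 2 and at -0.17 in replicates 3 and 4. Over the 8 livers it was also among the genes most like the secondary granule mean (Pearson r 0.95). The list's median was -0.34 in replicates 1 and 2 and 0.17 in replicates 3 and 4. Of 16 other genes of secondary and tertiary granules, 11 had lower and 5 higher means and 0 passed, with a median of -0.22. All 16 had lower means in the knockout in replicates 1 and 2, with a median of -0.58, and 10 had higher means in replicates 3 and 4, with a median of 0.10. Itgam, the alpha chain of the Mac-1 integrin, had the lowest p, at -0.56 ± 0.25 (limma adjusted p 0.421). At an unadjusted p under 0.05 there were 0 genes of the first list and 1 of the second, against 11.7% of all probe sets.

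Among 17 factors and receptors of granulocyte formation 0 passed, with a median of 0.03. An unadjusted p under 0.05 was found for 4, against 11.7% of all probe sets. Padi4, among these 4, had group means of 2.57 in knockout and 2.93 in wild type livers, below the array medians. Cxcr4, the receptor that holds immature neutrophils in blood-forming tissue, had the lowest p, at -0.43 ± 0.13 (SE; limma adjusted p 0.201). Gfi1, a repressor needed for neutrophil maturation, measured 3.55, 3.29, 3.83 and 4.34 in knockout 1 to 4 and 4.63, 4.17, 3.72 and 3.56 in wild type 1 to 4. Its low and high livers resembled those of the primary granule genes, but several of these values lie below the array medians and are not shown to be above background.

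Over 11380 genes brighter than the median probe set, the 6 whose values over the 8 livers were most like the primary granule mean were Fes, Tfec, Gpc1, Gfi1, Mapkapk3 and Treml1, with Pearson r between 0.90 and 0.92. Those most like the secondary granule mean were Cd52, Alox5, Ncam1, Plp2, Lyz2 and Itgb2, with r between 0.95 and 0.97. These 12 were taken as the top of a ranking and show no more than likeness over 8 arrays.

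Markers of other cells of newborn liver were read from the same arrays. Of 12 erythroid markers 4 fell in the knockout, where 0.564% of all probe sets did, and 12 had an unadjusted p under 0.05, against 11.7% of all probe sets. All 12 had lower means, with a median of -0.82. Ermap, Tspan33 and Hemgn, all known from red cell precursors, fell by 0.76 ± 0.12, 0.80 ± 0.13 and 0.85 ± 0.15 (SE; limma adjusted p 0.0366, 0.0390 and 0.0440). The list mean lay between 8.16 and 8.77 in knockout and between 9.10 and 9.35 in wild type livers. Of 19 cell cycle genes 4 fell, 18 had an unadjusted p under 0.05 and 19 had lower means, with a median of -0.76. Plk1, a mitotic kinase, fell by 0.84 ± 0.12 (limma adjusted p 0.0278), Ccna2, cyclin A2, by 0.82 ± 0.14 (0.0400), and Rrm2, a subunit of ribonucleotide reductase, by 1.02 ± 0.18 (0.0429). With the erythroid mean as a covariate, which itself parts the genotypes, 0 granule genes passed, and the median was -0.94 for primary and -1.05 for secondary granule genes. The part of the cell cycle genes in the granule gene values was not tested.

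Monocyte and macrophage markers, which share many myeloid genes with neutrophils, were found for 14 genes, 0 of which passed; the median was 0.12. Their list mean lay between 6.79 and 7.47 in knockout and between 6.62 and 7.22 in wild type livers. C1qa, a complement subunit made by macrophages, had the lowest p of its list, at 0.37 ± 0.16 (SE; limma adjusted p 0.386). Eosinophil, basophil and mast cell markers were found for 11 genes, 0 of which passed, and the median was 0.15. On average 9 of the 11 lay below the array medians, the eosinophil genes Prg2 and Epx among them, so this median was taken mostly over dim probe sets. Cpa3, a mast cell protease and also below the array medians, had the lowest p of that list, at 0.33 ± 0.14 (limma adjusted p 0.409). Mcpt8, a basophil protease above the array medians and named after its values were seen, stood at -0.77 ± 0.36 (limma adjusted p 0.451). B cell precursor markers were found for 9 genes, 0 of which passed, with a median of -0.27, and Ebf1 stood at -0.63 ± 0.20 (limma adjusted p 0.213), with group means of 2.98 and 3.61 below the array medians that are not shown to be above background. In the 3 lists of this kind, in the same order, 1, 1 and 3 genes had an unadjusted p under 0.05. The share over all probe sets was 11.7%.

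T and NK cell markers had a median of 0.09 over 8 genes, megakaryocyte markers of -0.13 over 7, stem and progenitor markers of 0.00 over 8, hepatocyte markers of 0.10 over 9 and endothelial markers of -0.13 over 8. In each of these 5 lists 0 genes passed in limma. At an unadjusted p under 0.05 there were 0, 0, 1, 1 and 0 genes, against 11.7% of all probe sets. The lowest p was that of Nkg7 (-0.59 ± 0.29), Itga2b (0.20 ± 0.10), Meis1 (0.43 ± 0.15), Fgb (0.31 ± 0.09) and Lyve1 (0.61 ± 0.30). Of 12 acute phase genes, which the liver makes in inflammation, Lbp, a binding protein of bacterial lipopolysaccharide, rose by 0.78 ± 0.15 (limma adjusted p 0.0499). It was the 1 gene of this list to pass, where 0.198% of all probe sets were higher past the threshold. An unadjusted p under 0.05 was found for 3 of the 12, against 11.7% of all probe sets. The list's median was 0.12.

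**Figure D4:**
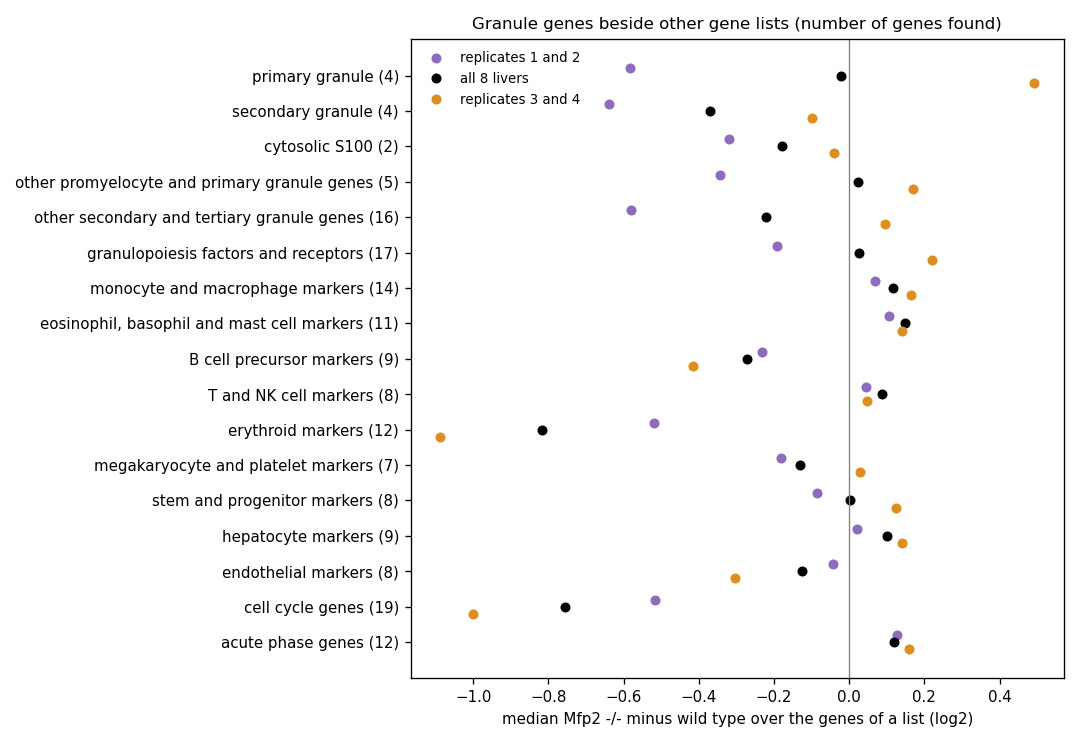
Median difference, Mfp2 -/- minus wild type on the log2 scale (horizontal axis), over the genes of each list (vertical axis, with the number of genes found), in all 8 livers (black), replicates 1 and 2 (purple) and replicates 3 and 4 (orange). Primary granule genes run from -0.58 to 0.49 between the sets. Erythroid and cell cycle lists lie below 0 in both, as do the secondary granule, S100, B cell precursor and endothelial lists.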

How the data were processed

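The values are on the log2 scale as deposited, and the submitters' processing notes name RMA as their source. This method corrects background, gives all arrays 1 distribution of probe values and summarises each probe set. The sources used here give no software, settings or build. Such values hide a change in total mRNA and can understate differences of dim probe sets. Arrays give no read depth, and their number limits the precision.

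Array controls (64 probe sets) were left out. Probe sets were named by the array annotation, which gives 34945 of them 1 gene. Knockout was compared with wild type in limma 3.58.1 under R 4.3.3 (lmFit, eBayes, two-sided, no covariate), with Benjamini-Hochberg adjustment over 45037 probe sets and a threshold of 0.05. The script was tested on simulated data. The effect within replicates 1 and 2 and within 3 and 4 was fitted on those livers alone, and its change between sets as an interaction. In the 14 lists of other genes the probe set with the highest mean stood for a gene. From each list up to 3 genes past the threshold with the lowest p were named, or else the 1 with the lowest p. Hsd17b4 and Xist served as checks, and the genes most like a granule mean came from a ranking by Pearson r. The members and lists were chosen with earlier results of these data known. The alternatives are a filter on dim probe sets, other normalization, centring and variance settings, array weights, blocks, covariates and livers left out.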

Additional observations from a re-analysis of the deposited data

Results flagged for a closer look

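In 56 sets of 4 livers (2 genotypes for each of the 10 members, 4 means or differences made from them and the 14 means of other lists), 3 held a liver that stood apart by Dixon's criterion. Chance flags about 1 in 20. Knockout 4 stood apart in Camp, at 11.07 while the others of its genotype lay at 10.53 to 10.61, and in the mean of the primary granule genes, at 9.48 against 8.60 to 8.72. Wild type 2 stood apart in S100a9, at 12.63 against 12.26 to 12.30 in the other wild type livers.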

How the results depend on the processing

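In 200 alternative fits of single members (20 for each gene) 0 passed the threshold, and the lowest limma adjusted p was 0.199, for Ltf. Ltf, Camp, Ngp, Mmp8 and S100a8 kept a lower mean in the knockout in all 20. The filter, the blocks and the variance settings leave each difference unchanged here, so they do not bear on its sign. Leaving out 1 liver could move the size by over 1.5 times for Camp, Ngp, Mmp8 and S100a8. With 1 liver left out Camp ran from -0.40 (without knockout 4) to -0.16 (without wild type 2), Ngp from -0.33 (wild type 3) to -0.11 (wild type 2), Mmp8 from -0.94 (wild type 3) to -0.33 (wild type 2) and S100a8 from -0.35 (knockout 4) to -0.15 (knockout 2). Ltf ran from -0.68 to -0.34, Elane from -0.52 (knockout 4) to -0.20 (knockout 3) and S100a9 from -0.24 (knockout 4) to -0.025 (knockout 2). The sign changed in 16 fits of the other 5. In replicates 3 and 4 Mpo was at 0.35, Elane at 0.012 and S100a9 at 0.022, and in replicates 1 and 2 Prtn3 was at -0.56 and Ctsg at -0.60. With array weights Mpo was at 0.081. With the erythroid mean as a covariate Prtn3 was at -1.15 and Ctsg at -1.05. With 1 liver left out Mpo ran from -0.26 to 0.063, Prtn3 from -0.19 to 0.16 and Ctsg from -0.18 to 0.23. The primary median was -0.58 in replicates 1 and 2, 0.49 in replicates 3 and 4 and -0.94 with the erythroid covariate, under which the secondary median was -1.05. Left out singly, livers moved the primary median between -0.22 and 0.10 and the secondary median between -0.54 and -0.25. The interaction of Mmp8 turned to -0.088 with the Y-linked mean as a covariate. The cause of these changes was not tested.

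The count of all probe sets past the threshold was 343. It was 552 with the Y-linked covariate, 914 with array weights, 0 with the erythroid covariate, 4 in replicates 1 and 2 alone, and between 9 and 489 with 1 liver left out. Leaving out knockout 1, 3 or 4 or wild type 1, 3 or 4 gave 177, 38, 13, 161, 13 and 9. With the replicate number as a block it was 15, and no member's call changed. The labels do not say whether the numbers pair livers, and a check on so few livers cannot decide it. The correlation of deviations was -0.00, 0.07, 0.17 and 0.26 for numbers 1 to 4. Of the 8 livers, 3 correlated best with their own number. Of the genes in the other lists 9 passed, and 14 did with the replicate set (1 and 2, or 3 and 4) as a block. In replicates 3 and 4 alone 14 passed, in replicates 1 and 2 alone 0, and with the Y-linked covariate 18. Of the 4 Y-linked genes meant for that covariate, 3 were found by symbol. Each member has 1 probe set, so averaging probe sets changed nothing.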

Other observations

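Chil3, which encodes a chitinase-like protein of neutrophil granules and macrophages, varied most among the other secondary granule genes and was chosen after its values were seen. It measured 7.29, 7.99, 9.25 and 8.19 in knockout 1 to 4 and 6.71, 9.81, 6.10 and 6.71 in wild type 1 to 4. Wild type 2 was the highest of the 8 livers and wild type 1, 3 and 4 were the lowest. The difference was 0.85 ± 0.73 (SE; limma adjusted p 0.739), at -0.62 in replicates 1 and 2 and 2.31 in replicates 3 and 4.

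Lcn2, which encodes the siderophore-binding protein lipocalin 2 of secondary granules and of hepatocytes in inflammation, was also named after its values were seen. It measured 9.81, 9.28, 10.82 and 10.57 in knockout 1 to 4 and 9.75, 10.57, 9.81 and 10.01 in wild type 1 to 4. Knockout 3 was its highest liver, whereas the secondary granule genes Ltf and Mmp8 were lowest there. The difference was 0.08 ± 0.32 (limma adjusted p 0.956).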
